A study of Mus musculus with 18 samples.

Results

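The 10 genes described here encode heat shock proteins of the cytosol (Hspa1a, Hspa1b, Hspa8, Hsp90aa1, Hspb1, Dnajb1, Hsph1 and Bag3) and of the mitochondrial matrix (Hspd1 and Hspe1). They were chosen by name, and every array probe annotated to 1 of them was read, which gave 19 of the 45281 probes. Of these, 15 passed the filter on dim probes (3 or more of the 18 arrays with a detection p-value below 0.05), and each of the 10 genes had at least 1 such probe among the 11149 genes tested. Transcripts were measured on Illumina mouse BeadChips in SV40-transformed hepatocytes of the C57BL/6N strain without a working aryl hydrocarbon receptor (AhR), the transcription factor that dioxins and related ligands switch on.

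Reconstituted cells carried the tetracycline repressor TetR together with a HisMyc epitope tagged mouse AhR, and AhR-null cells carried TetR (pLenti6/TR) alone. Each line was given 10 µM YH439, an AhR ligand, was held in suspension, or was given 0.1% DMSO as vehicle, for 8 h in each case. The 6 groups had 3 arrays each. Suspended cells had been lifted with 0.05% trypsin and 530 µM EDTA and put into 1.68% methylcellulose, whereas the YH439 and DMSO cultures stayed attached and confluent. All groups shared the AhR-null background, the SV40 tsA209 mutant virus, TetR, a growth temperature of 34 °C, 10% fetal calf serum and 100 nM dexamethasone. The labels state biological triplicates but not whether each came from its own culture, and the p-values therefore speak only of the spread between these arrays, which may be technical. The labels give no vehicle for the YH439 and suspended cultures. They describe 1 stable derivative per line, so an effect of the receptor and a difference between the derivatives cannot be told apart.

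Heat shock proteins bind unfolded or partly folded proteins and are made in larger amounts when proteins lose their fold, through the heat shock factor HSF1 and the heat shock elements it binds in their promoters. The HSP70 proteins bind short exposed stretches of a client protein, J domain proteins such as DNAJB1 bring clients and start the ATP cycle, and exchange factors such as HSPH1 and BAG3 release ADP and with it the client. HSP90 takes over late-folding clients, and the unliganded AhR is itself a client that waits in the cytosol bound to HSP90. HSPD1 and HSPE1 form the barrel and the lid of the mitochondrial folding chamber.

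A heat shock element is a run of the units GAA and TTC in turn, each parted from the next by NN, where N is any base. RefSeq promoter windows of GRCm38.p6 were matched by symbol for 8 of the 10 genes, in 11 windows, and Hspa8 and Hsp90aa1 were not matched. The 250 bases before each start were searched, which covers both strands because the reverse complement of such a run is again such a run. Runs of at least 3 units, the length usually taken as a full element, lay in 0.466% of the 32851 windows of all genes, and runs of at least 2 units in 12.8%. Among the stretches shown, only that of Hspe1 holds a run of at least 3 units, and the others hold runs of 2. Runs are in capitals, and positions are counted back from the start at -1.
Hspe1, chr1:55088053-55088082, plus strand, -95 to -66: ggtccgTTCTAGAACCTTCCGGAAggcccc
Hspb1, chr5:135887789-135887848, plus strand, -130 to -71: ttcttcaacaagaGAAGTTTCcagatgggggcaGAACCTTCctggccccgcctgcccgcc
Hspa1b, chr17:34959309-34959368, minus strand, -130 to -71: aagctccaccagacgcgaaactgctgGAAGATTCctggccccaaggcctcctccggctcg
Hspa1a, chr17:34972227-34972286, minus strand, -130 to -71: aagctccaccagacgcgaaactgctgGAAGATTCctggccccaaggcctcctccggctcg
Hsph1, chr5:149636337-149636396, minus strand, -60 to -1: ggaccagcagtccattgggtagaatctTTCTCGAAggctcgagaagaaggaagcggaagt

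The longest run among the members had 4 units over 18 bases and belonged to the mitochondrial pair, a length found in 0.0213% of all windows. Hspd1 and Hspe1 sit head to head on chromosome 1. The same 18 bases lie at -89 to -72 of Hspe1 and, on the opposite strand, at -144 to -127 of the Hspd1 start at 55087932. The other Hspd1 start, at 55088243, lies within Hspe1, past the Hspe1 start at 55088148, and its window held no run. Hspb1 had 2 separate runs of 2 units, and Hsph1, Hspa1a and Hspa1b had 1 such run each. The Hspa1a and Hspa1b windows differed at 3 of 250 bases (98.8% identity), and the stretches shown are the same. Bag3 and Dnajb1 held no run of 2 units in these windows, which says only that these letters are not there. A match is a description of the sequence and not a site shown to be bound.

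Between 42.0% and 44.6% of probes were detected per array. Of the 12 hepatocyte markers, 6, with Alb and Apoa1 among them, gave no detected signal on any array and 3 gave it on every array, while 9 of the 11 mesenchymal and stellate markers gave it on every array. The only array with a detected Ahr signal was 1 of the AhR-null line under DMSO, so this probe does not check the labels. Tiparp, a known AhR target, changed with YH439 by 1.47 ± 0.19 (log2, SE; limma adjusted p = 0.00159) in reconstituted cells and by -0.01 ± 0.19 in AhR-null cells, a difference that did not pass (adjusted p = 0.120). The AhR targets Cyp1b1 (1.04 ± 0.27, 0.391) and Ahrr (0.24 ± 0.14, 1.00) were not called with YH439 in reconstituted cells. In suspension Tiparp rose in both lines, by 1.39 ± 0.19 in reconstituted and 0.92 ± 0.19 in AhR-null cells (7.52e-05 and 0.00242). The 6 dimmest arrays were replicate 1 of every reconstituted group and replicate 3 of every AhR-null group, with median signals of 6.03 to 7.19 against 8.78 to 11.9 on the other 12 arrays. Arrays with the same replicate number deviated together within each line (correlation 0.174 to 0.550 between reconstituted arrays and 0.559 to 0.864 between AhR-null arrays). Arrays with different numbers had -0.455 to 0.157 and -0.810 to 0.687, so some AhR-null arrays of different numbers deviated together as much. For this reason the number is a hint from the data, and each result was fitted both with and without it as a block. Values below are normalized log2 signals or differences of them, ± is the SE of a change, and a call is a limma adjusted p under 0.05.

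In suspension a few of these genes rose, by small amounts. In suspended reconstituted cells 3 of the 10 genes were called higher than under DMSO (Hspa1a, Hsph1 and Dnajb1) and 0 were lower, where 24.1% of all genes tested were called in either direction (34.5% at an unadjusted p under 0.05) and 10.7% were called higher. Of the called genes 44.4% were higher, beside 37.1% of those called with median scaling and 56.8% of those called from the authors' processed values. In AhR-null cells these shares were 47.6%, 40.2% and 54.2%. In suspended AhR-null cells 2 of the 10 were called higher (Hsph1 and Dnajb1) and 0 lower, where 22.6% of all genes were called (33.7% unadjusted) and 10.8% were called higher. The 3 arrays of each group did not overlap and were higher in suspension for 4 genes in reconstituted cells (Hsp90aa1 besides the 3; 19.2% of all genes) and for 2 in AhR-null cells (14.4%). With the replicate block, 7 were called higher in reconstituted cells (48.7% of all genes called, 21.2% higher), and 3 were higher and 1 was lower in AhR-null cells (47.2% called, 21.1% higher and 26.1% lower). The median change of the 10 was 0.33 in reconstituted cells and 0.15 in AhR-null cells, beside -0.04 over all genes in either line. In these bulk samples, fewer cells of a type and less RNA per cell cannot be told apart.

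**Figure D1:**
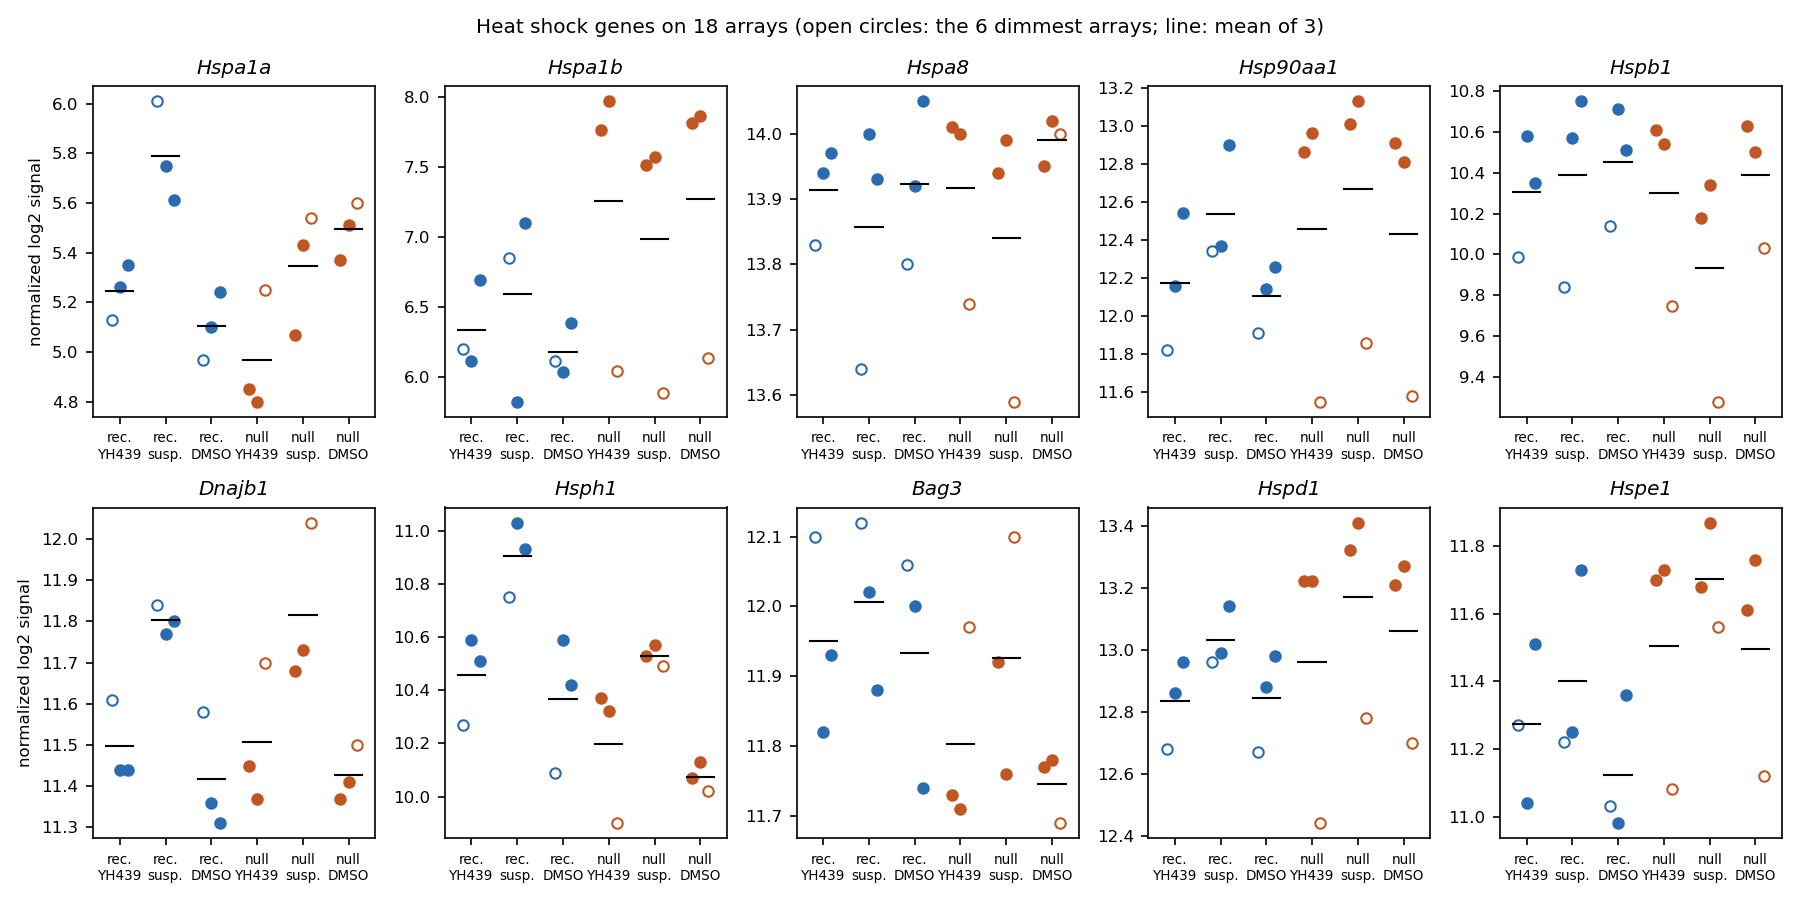
Normalized log2 signal (y axis, scaled to each gene) of the probe that stands for each of the 10 genes on every array, by group; rec. is reconstituted, susp. is suspension, open circles are the 6 dimmest arrays and each line is the mean of 3 arrays. Dnajb1 and Hsph1 are higher in suspension than under DMSO on every array of both lines, while the Hspa1b and Hsp90aa1 points of the AhR-null line fall into 2 bright arrays and 1 dim array per group.

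Among the HSP70 partners, Dnajb1 encodes the J domain protein that feeds clients to the stress-inducible HSP70. Its signals were 11.84, 11.77 and 11.80 on the suspended reconstituted arrays, against 11.58, 11.36 and 11.31 under DMSO. On the AhR-null arrays they were 11.68, 11.73 and 12.04 in suspension, against 11.37, 11.41 and 11.50 under DMSO. Every suspended array was above every DMSO array of its line. The change was 0.39 ± 0.12 in reconstituted cells (1.31-fold, adjusted p = 0.0246) and 0.39 ± 0.12 in AhR-null cells (1.31-fold, adjusted p = 0.0241).

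Hsph1 encodes HSP110, an exchange factor that works with HSP70 to pull proteins out of aggregates. It stood at 10.75, 11.03 and 10.93 in suspended reconstituted cells, against 10.09, 10.59 and 10.42 under DMSO. In AhR-null cells the values were 10.53, 10.57 and 10.49 in suspension, against 10.07, 10.13 and 10.02 under DMSO. The arrays did not overlap in either line, and the AhR-null pairs differed by nearly equal amounts (0.45, 0.44 and 0.47). The change was 0.54 ± 0.14 (1.45-fold, adjusted p = 0.0129) in reconstituted cells and 0.45 ± 0.14 (1.37-fold, adjusted p = 0.0341) in AhR-null cells.

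Several of the Dnajb1 and Hsph1 calls ended under other settings without the block. Median scaling ended that of Dnajb1 in reconstituted and AhR-null cells (adjusted p = 0.234 and 0.233) and that of Hsph1 in AhR-null cells (0.0874), and fitting only the groups compared ended both in AhR-null cells (0.141 and 0.0584). Leaving out 1 array ended others. In reconstituted cells the adjusted p of Dnajb1 was 0.0717, 0.0539 and 0.0652 without suspension replicate 1, 2 and 3, and 0.0828 and 0.0962 without DMSO replicate 2 and 3. That of Hsph1 was 0.0584 without suspension replicate 2 and 0.0694 without DMSO replicate 1. In AhR-null cells Dnajb1 had 0.0930 without suspension replicate 3 and 0.0796 and 0.0667 without DMSO replicate 1 and 2. Hsph1 had 0.0739 and 0.0929 without suspension replicate 1 and 2, and 0.0792, 0.0625 and 0.0868 without DMSO replicate 1, 2 and 3. The direction stayed positive in each of these fits. With the replicate block, both genes were called in both lines in all 6 blocked fits, which include leaving out each replicate number of the line (adjusted p 0.000575 to 0.0144 for Dnajb1 and 0.000258 to 0.00645 for Hsph1 in reconstituted cells, 0.000567 to 0.0118 and 0.000944 to 0.0101 in AhR-null cells).

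Bag3 encodes a cochaperone that links HSP70 to selective autophagy and is a standard heat shock target in other cells. Its signals ran from 11.88 to 12.12 in suspended reconstituted cells, against 11.74 to 12.06 under DMSO, and from 11.76 to 12.10 in suspended AhR-null cells, against 11.69 to 11.78 under DMSO. The groups overlapped in both lines. The change was 0.08 ± 0.12 (95% interval -0.19 to 0.34) in reconstituted cells and 0.18 ± 0.12 (-0.08 to 0.44) in AhR-null cells, with adjusted p of 0.727 and 0.337. It was called in 0 of the 19 alternatives in either line.

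The stress-inducible HSP70 proteins are made from a pair of near-identical genes, Hspa1a and Hspa1b, so each probe may also read RNA of the other and the values of both are uncertain. Hspa1a kept 1 of its 3 probes, and that probe lay close to background. Its bead intensities were 37.7, 42.7 and 40.3 in suspended reconstituted cells, against 10.2, 19.3 and 23.5 under DMSO, where it was detected on 2 of the 3 arrays. In AhR-null cells they were 22.8, 35.9 and 19.7 in suspension, against 32.7, 36.3 and 24.8 under DMSO. The reconstituted suspended arrays lay above all DMSO arrays of their line, while the AhR-null groups overlapped. After normalization the change was 0.69 ± 0.15 (1.61-fold, adjusted p = 0.00347) in reconstituted cells, called in all 19 alternatives (adjusted p 0.000460 to 0.0425), and -0.14 ± 0.15 (adjusted p = 0.563) in AhR-null cells.

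The Hspa1b probe with the higher signal gave 6.85, 5.82 and 7.10 in suspended reconstituted cells, against 6.11, 6.03 and 6.38 under DMSO. In AhR-null cells it gave 7.51, 7.57 and 5.88 in suspension, against 7.81, 7.86 and 6.13 under DMSO. Replicates 1 and 3 of the reconstituted line were higher in suspension and replicate 2 was lower, while all 3 AhR-null pairs were lower by similar amounts (-0.30, -0.29 and -0.25). The change was 0.41 ± 0.56 in reconstituted cells (adjusted p = 0.662; 0.0456 with the block) and -0.28 ± 0.56 in AhR-null cells (0.790; 0.165 with the block). Over the 19 alternatives the adjusted p in reconstituted cells ran from 0.000256 to 0.914, and 2 were past the threshold. The other Hspa1b probe changed by 0.04 and -0.05 in the 2 lines, with adjusted p of 0.946 and 0.926.

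Hspa8 encodes the constitutive HSP70 that most cells hold in abundance. Its signals lay between 13.59 and 14.05 on all suspended and DMSO arrays, and the groups overlapped in both lines. The change was -0.07 ± 0.13 (95% interval -0.34 to 0.20) in reconstituted cells and -0.15 ± 0.13 (-0.42 to 0.12) in AhR-null cells. Its other 2 probes changed by -0.17 to -0.01. None of its 3 probes was called in either line, with or without the block.

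Hsp90aa1 encodes the stress-inducible isoform of cytosolic HSP90. It stood at 12.34, 12.37 and 12.90 in suspended reconstituted cells, against 11.91, 12.14 and 12.26 under DMSO. In AhR-null cells it stood at 13.01, 13.13 and 11.86 in suspension, against 12.91, 12.81 and 11.58 under DMSO. The reconstituted groups did not overlap, and every same-numbered pair of both lines was higher in suspension, but replicate 3 of the AhR-null line lay far below replicates 1 and 2. Without the block the change was 0.43 ± 0.41 (adjusted p = 0.517) in reconstituted cells and 0.23 ± 0.41 (adjusted p = 0.759) in AhR-null cells. With the block the SE was 0.09 in each line and both were called (adjusted p = 0.00161 and 0.0467). In reconstituted cells all 6 blocked fits called it (3.02e-05 to 0.0262), and in AhR-null cells 2 of 6 did (0.00214 to 0.217). The lowest value of each range is from the blocked fit of every kept probe and belongs to the other Hsp90aa1 probe. In that fit the probe that stands for the gene had 0.00248 in reconstituted cells and 0.0603 in AhR-null cells. The other kept Hsp90aa1 probe changed by 0.97 and 0.53 (adjusted p = 3.02e-05 and 0.00214 with the block, 0.382 and 0.674 without).

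Hspb1, the small heat shock protein HSP25 that holds unfolded clients without ATP and takes part in actin regulation, had no called rise. Its signals were 9.84, 10.57 and 10.75 in suspended reconstituted cells, against 10.14, 10.71 and 10.51 under DMSO. In AhR-null cells they were 10.18, 10.34 and 9.28 in suspension, against 10.63, 10.50 and 10.03 under DMSO. All 3 AhR-null pairs were lower in suspension, by 0.45, 0.16 and 0.75, while the reconstituted pairs went both ways. The change was -0.07 ± 0.31 in reconstituted cells (adjusted p = 0.913; 0.672 with the block). In AhR-null cells it was -0.45 ± 0.31 without the block (adjusted p = 0.344), and with the block Hspb1 was called lower (adjusted p = 0.00752). It was called in 4 of the 6 blocked fits of AhR-null cells (0.00735 to 0.0962).

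The mitochondrial chaperonin genes were slightly higher in suspension on every same-numbered pair of arrays. Hspd1 gave 12.96, 12.99 and 13.14 in suspended reconstituted cells, against 12.67, 12.88 and 12.98 under DMSO, and its lid partner Hspe1 gave 11.22, 11.25 and 11.73, against 11.03, 10.98 and 11.36. In AhR-null cells Hspd1 gave 13.32, 13.41 and 12.78 in suspension, against 13.21, 13.27 and 12.70 under DMSO, and Hspe1 gave 11.68, 11.87 and 11.56, against 11.61, 11.76 and 11.12. The groups overlapped for both genes in both lines. The Hspd1 change was 0.19 ± 0.21 in reconstituted cells (adjusted p = 0.594; 0.0323 with the block) and 0.11 ± 0.21 in AhR-null cells (0.779; 0.186). The Hspe1 change was 0.28 ± 0.21 (0.382; 0.0219 with the block) and 0.21 ± 0.21 (0.548; 0.0801). Of 6 blocked fits in reconstituted cells, 2 called Hspd1 (0.00124 to 0.223) and 4 called Hspe1 (0.0123 to 0.152). The lowest Hspd1 value is from the blocked fit of every kept probe and belongs to the other Hspd1 probe. The probe that stands for Hspd1 had 0.0488 in that fit. The other Hspd1 probe was called in reconstituted cells without the block too, at 0.38 ± 0.10 (adjusted p = 0.0110 over all kept probes), and changed by 0.10 ± 0.10 in AhR-null cells (0.524).

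**Figure D2:**
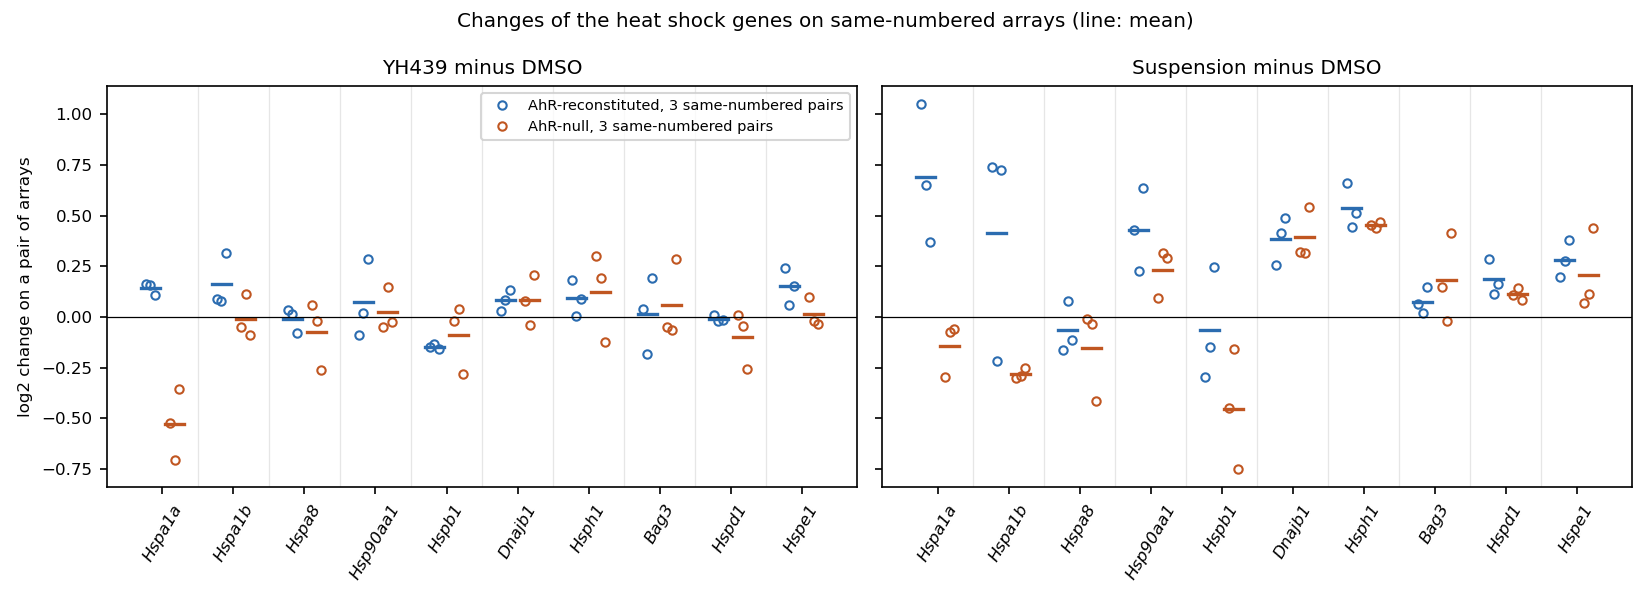
Log2 change of each gene on 3 same-numbered pairs of arrays (circles; lines are their means), YH439 minus DMSO on the left and suspension minus DMSO on the right, reconstituted cells in blue and AhR-null cells in orange. In suspension all pairs of Dnajb1, Hsph1, Hsp90aa1, Hspd1 and Hspe1 lie above 0 in both lines, and the Hspa1a and Hspa1b pairs of AhR-null cells lie below 0.

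Summed markers of other cell types were higher in suspension for bile duct in both lines and for macrophages in reconstituted cells. Of the 5 bile duct markers on the array, Krt19 and Sox9 were detected on every array and Epcam and Cftr on no array, and their summed intensity was 5204 to 5992 in suspended reconstituted cells, against 1618 to 2169 under DMSO. In AhR-null cells it was 4743 to 4936 in suspension, against 1851 to 2161 under DMSO. The 5 macrophage markers on the array summed to 172 to 259 in suspended reconstituted cells, against 83.2 to 136 under DMSO, and to 148 to 282 in suspended AhR-null cells, against 99.5 to 179 under DMSO, with Adgre1 and Ptprc detected on none. The AhR-null macrophage sums overlapped between suspension and DMSO. So did the hepatocyte, mesenchymal and stellate, and endothelial sums of both lines. The part of these markers in the heat shock changes was not tested.

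The suspension responses of the lines were compared as the response of reconstituted cells minus that of AhR-null cells. With 1 stable derivative per line, a difference could not be credited to the receptor. By limma 0 of the 10 genes passed (0.00897% of all genes; 1 of the 10 at an unadjusted p under 0.05, beside 2.62% of all genes), and 0 passed with the block (0.17% of all genes; 3 of the 10 unadjusted, beside 11% of all genes). The widest gaps were those of the HSP70 pair, 0.83 ± 0.21 for Hspa1a (adjusted p = 0.907; 0.119 with the block) and 0.70 ± 0.79 for Hspa1b (1.00; 0.291 with the block), where the other Hspa1b probe gave 0.09 ± 0.36. Hspa1b passed in 1 of 28 alternatives, the blocked fit without reconstituted replicate 2 (1.01, adjusted p = 0.0286; range over alternatives 0.0286 to 1.00). The genes called in both lines had differences near 0, with 95% intervals of -0.36 to 0.35 for Dnajb1 (-0.01 ± 0.17) and of -0.35 to 0.52 for Hsph1 (0.09 ± 0.20). These intervals still leave room for a difference about as large as the responses, and for Hsph1 larger than its AhR-null response of 0.45. With the block they were narrower, -0.21 to 0.20 for Dnajb1 and -0.18 to 0.35 for Hsph1.

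YH439 was compared with DMSO to ask whether the receptor's ligand moved the same genes. In reconstituted cells limma called 0 of the 10 (0.135% of all genes were called; 0 of the 10 at an unadjusted p under 0.05, beside 2.67% of all genes; 0 with the block, where 0.861% of all genes were called, and 0 unadjusted, beside 9.59%). On the probes that stand for the genes the changes lay between -0.15 (Hspb1) and 0.16 (Hspa1b), with a median of 0.08. The other Hspa1b probe had the opposite sign (-0.20 ± 0.25, lower in 3 of 3 pairs), and the other Hsp90aa1 probe changed by 0.33 ± 0.68 (higher in 3 of 3 pairs; adjusted p = 0.350 over all kept probes with the block). The other Hspa8 and Hspd1 probes changed by -0.10 to 0.05. The 2 genes called in suspension in both lines changed with YH439 by 0.08 ± 0.12 (Dnajb1, 95% interval -0.17 to 0.33) and 0.09 ± 0.14 (Hsph1, -0.22 to 0.40). For Hsp90aa1, the change of 0.07 had an interval of -0.81 to 0.95, narrowed to -0.12 to 0.26 by the block. The suspension and YH439 comparisons of a line share the same DMSO arrays.

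In AhR-null cells YH439 gave 0 calls among the 10 by limma (0% of all genes; 1 of the 10 at an unadjusted p under 0.05, beside 1.66% of all genes) and 0 with the block (0.0179% of all genes; 1 of the 10 unadjusted, beside 6.48%). That gene was Hspa1a, with signals of 4.85, 4.80 and 5.25 with YH439, against 5.37, 5.51 and 5.60 with DMSO. The arrays did not overlap, which held in this direction for 2.18% of all genes, and the probe was detected on 1 of the 3 YH439 arrays and on all 3 DMSO arrays. The change was -0.53 ± 0.15 (adjusted p = 1.00; 0.450 with the block). The other 9 changes lay between -0.10 and 0.12, as did those of the 5 other kept probes. The difference of the YH439 responses gave 0 calls among the 10 (0.0269% of all genes; 1 of the 10 unadjusted, beside 1.68% of all genes; 0.161% of all genes and 0 of the 10 with the block, 1 of the 10 unadjusted, beside 6.87%), the largest being 0.67 ± 0.21 for Hspa1a (adjusted p = 1.00; 0.309 with the block).

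The lines themselves were compared under DMSO. By limma 0 of the 10 genes differed (0.547% of all genes were called; 1 of the 10 at an unadjusted p under 0.05, beside 9.48% of all genes), and 0 with the replicate block as a random effect (0.422% of all genes; 2 of the 10 unadjusted, beside 10.9% of all genes). The largest difference on the probes that stand for the genes was that of Hspa1b, at 6.11, 6.03 and 6.38 in reconstituted cells, against 7.81, 7.86 and 6.13 in AhR-null cells. AhR-null replicate 3 lay among the reconstituted arrays, while replicates 1 and 2 lay above them. The difference, reconstituted minus AhR-null, was -1.09 ± 0.56 (adjusted p = 0.567), and on the other kept Hspa1b probe it was 0.03 ± 0.25 (0.967 over all kept probes). The Hsp90aa1 probes gave -0.33 ± 0.41 and -0.98 ± 0.68 (0.775 and 0.632 over all kept probes), the other 2 Hspa8 probes -0.32 and 0.11 and the other Hspd1 probe -0.01. For Hspa1a it was -0.39 ± 0.15 (adjusted p = 0.419), and its reconstituted arrays all lay below the AhR-null arrays, as for 5.61% of all genes.

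That comparison depended on the dim arrays. Without the 6 dimmest arrays 4 of the 10 genes were called, where 24.4% of all genes were called in the same fit, with Hsph1 higher in reconstituted cells (0.40, adjusted p = 0.0119) and Hspa1b (-1.63, 0.0114), Hsp90aa1 (-0.66, 0.0215) and Hspd1 (-0.31, 0.0277) lower. On the dim DMSO array of each line alone, reconstituted minus AhR-null, the differences were 0.07 for Hsph1, -0.02 for Hspa1b, 0.34 for Hsp90aa1 and -0.03 for Hspd1. Over 22 alternatives the adjusted p of Hspa1b ran from 0.000916 to 1.00 and passed in 3. With 1 dim array per group, these values allow no test.

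The gap between dim and other arrays differed between probes of the same gene. In AhR-null cells the dim arrays minus the others differed by -1.73 for the brighter Hspa1b probe and -0.63 for the other, and by -1.28 and -2.06 for the 2 Hsp90aa1 probes. The 3 Hspa8 probes gave -0.21, -1.14 and 0.32, and the 2 Hspd1 probes -0.63 and 0.11. In reconstituted cells the same gaps were 0.03 and -0.18 for Hspa1b and -0.37 and -0.48 for Hsp90aa1. The median over all genes was 0.04 in reconstituted cells (10% of genes lay below -0.28 and 10% above 0.25) and 0.14 in AhR-null cells (below -0.62 and above 0.53). Dnajb1 had gaps of 0.15 in reconstituted and 0.24 in AhR-null cells. The gap of Hsph1 was -0.31 in reconstituted cells, beyond the first of these bounds, and -0.20 in AhR-null cells.

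**Figure D3:**
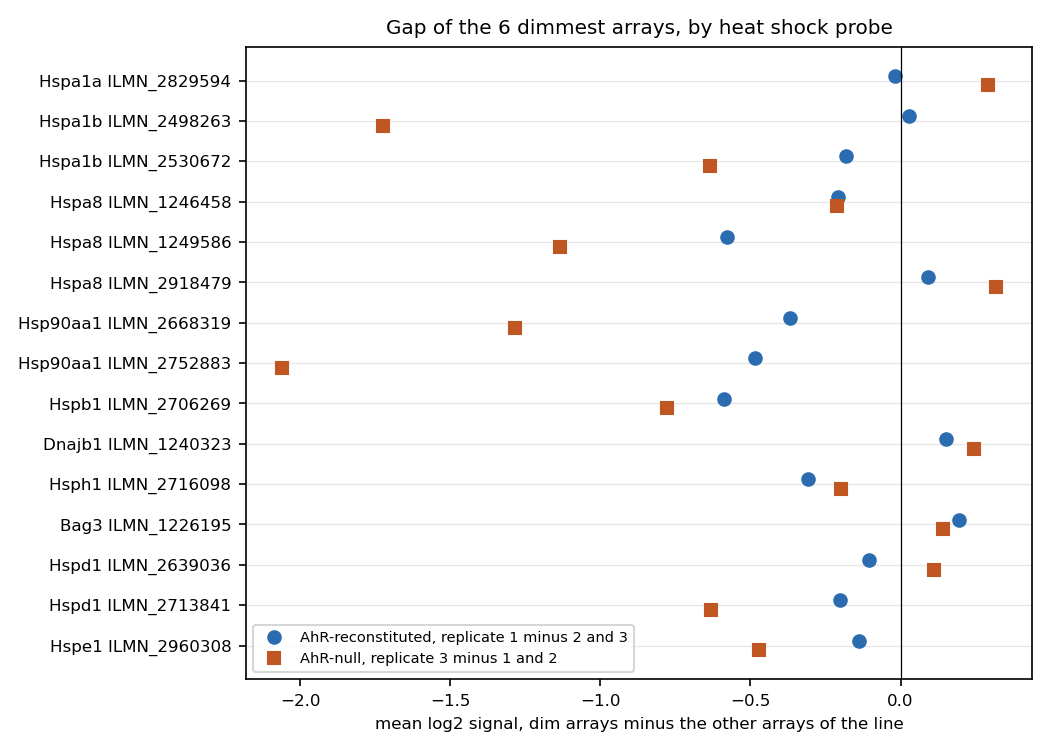
Mean log2 signal of the dim arrays minus that of the other arrays of the same line (x axis) for each of the 15 kept probes (rows), reconstituted cells as blue circles and AhR-null cells as orange squares. Probes of the same gene differ in the gap, as for Hspa8 (-0.21, -1.14 and 0.32 in AhR-null cells), and the gap is widest for Hsp90aa1 and Hspa1b in AhR-null cells.

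Ordered by level, the 6 group means of a gene spanned between 0.15 (Hspa8) and 1.09 (Hspa1b). Of the 50 pairs of neighbouring groups in these orders, 47 had overlapping arrays and 0 differed by limma, with a lowest adjusted p of 0.0778. For Dnajb1 and Hsph1 the suspension groups held the higher places within each line. For Hspa1b, Hsp90aa1, Hspd1 and Hspe1 the AhR-null means lay above the reconstituted means of each treatment, on the probes that stand for them. The other Hspd1 probe was lower in AhR-null cells in suspension (11.24 against 11.51) and with YH439 (11.04 against 11.18). The other Hspa1b probe was lower there in suspension (5.37 against 5.49) and under DMSO (5.42 against 5.45). The other Hsp90aa1 probe kept the order. On the dim DMSO arrays alone, Hsp90aa1 was higher in reconstituted cells, by 0.34.

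The other genes of the protein folding machinery were read from 9 lists, of which 88 of 103 genes were tested. In suspension 18 of the 88 were called higher and 6 lower in reconstituted cells (27 and 22 with the block), and 15 higher and 8 lower in AhR-null cells (23 and 23 with the block). The share called was 27.3% in reconstituted cells, beside 24.1% of all genes, and 26.1% in AhR-null cells, beside 22.6%. With the block it was 55.7%, beside 48.7%, and 52.3%, beside 47.2%, so these shares lay near those of all genes. In the other 5 comparisons limma called 0 of the 88, beside 0% to 0.547% of all genes. At an unadjusted p under 0.05 there were 0 to 7, beside 1.66% to 9.48% of all genes. With the block 0 were called too, beside 0.0179% to 0.861% of all genes (5 to 14 unadjusted, beside 6.48% to 11%). The endoplasmic reticulum list held 9 of the 18 rises in reconstituted cells and 8 of the 15 in AhR-null cells, out of 12 tested chaperone genes, and with the block all 12 were called higher in both lines.

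Among these, Dnajb9, a J domain cochaperone that restrains the stress sensor IRE1, changed by 1.86 ± 0.13 in reconstituted cells and 1.83 ± 0.13 in AhR-null cells. Creld2, a secreted-pathway chaperone, changed by 1.08 ± 0.09 and 1.06 ± 0.09, and Sdf2l1, a partner of the HSP70 BiP, by 1.59 ± 0.19 and 1.39 ± 0.19. Pdia4, a disulfide isomerase, changed by 0.74 ± 0.11 and 0.84 ± 0.11. BiP itself, encoded by Hspa5 and named after its values were seen, changed by 2.29 ± 0.71 (adjusted p = 0.0286) in reconstituted cells and by 1.61 ± 0.71 (0.124; 1.03e-06 with the block) in AhR-null cells. The list's median was 0.92 in reconstituted cells and 0.81 in AhR-null cells, beside 0.33 and 0.15 for the 10 heat shock genes. The difference between the lists was not tested.

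In the mitochondria, 3 of 14 tested chaperone and protease genes were called higher in each line, and 2 were called lower in reconstituted cells and 1 in AhR-null cells. With the block 3 were higher in each line, and 4 were lower in reconstituted cells and 6 in AhR-null cells. Over all genes 24.1% were called in either direction in reconstituted cells and 22.6% in AhR-null cells. Those called higher were 10.7% and 10.8%. With the block 48.7% and 47.2% of all genes were called in either direction. Of all genes 21.2% and 21.1% were then higher, and 26.1% were lower in AhR-null cells. Hspa9, the mitochondrial HSP70 that hands clients to the HSPD1 and HSPE1 chamber, changed by 0.61 ± 0.13 and 0.59 ± 0.13. Lonp1, a matrix protease, changed by 0.77 ± 0.20 and 0.83 ± 0.20, and Dnaja3, a mitochondrial J domain protein, by 0.36 ± 0.09 and 0.42 ± 0.09. Dnajc19, of the import motor, changed by -0.81 ± 0.08 and -0.75 ± 0.08.

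The cytosolic lists gave calls in both directions. Beside them, 24.1% of all genes were called in reconstituted cells and 22.6% in AhR-null cells (48.7% and 47.2% with the block). Of 13 HSP90 and cochaperone genes 0 were higher in either line, and 1 was lower in reconstituted cells (Fkbp5, a glucocorticoid-inducible immunophilin, -0.38 ± 0.08) and 2 in AhR-null cells (Fkbp5, -0.25 ± 0.08, and Cdc37, the kinase adaptor, -0.69 ± 0.21), with 0 higher and 5 lower in each line with the block. Of 10 J domain genes 2 were higher and 1 lower in reconstituted cells (Dnajc5 0.48 ± 0.11, Dnajb6 0.35 ± 0.12 and Dnajc8 -0.22 ± 0.08), and 1 was higher and 1 lower in AhR-null cells (Dnajc5 0.57 ± 0.11 and Dnajc7 -0.42 ± 0.13), with 2 higher and 2 lower in reconstituted cells and 1 higher and 2 lower in AhR-null cells with the block. Of 13 genes of the CCT chaperonin and prefoldin 0 were higher, and 1 (Pfdn5, -0.38 ± 0.13) was lower in reconstituted cells and 2 (Cct3, -0.37 ± 0.10, and Pfdn4, -0.31 ± 0.10) in AhR-null cells, with 1 higher and 3 lower in reconstituted cells and 0 higher and 4 lower in AhR-null cells with the block.

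The counts of the next lists also stand beside 24.1% and 22.6% of all genes called in reconstituted and AhR-null cells (48.7% and 47.2% with the block). Of 8 exchange factors and HSP70 regulators 0 were called in reconstituted cells and 1 was lower in AhR-null cells (Bag5, -0.33 ± 0.11). With the block 2 were higher (Bag2 and St13) and 3 lower (Bag1, Bag5 and Stub1) in each line. Of 4 small heat shock protein genes 1 was higher in reconstituted cells (Hspb8, a partner of BAG3, 0.32 ± 0.11) and 0 in AhR-null cells, and with the block 1 was higher (Hspb8) and 1 lower (Hspb6) in each line. Of 5 further HSP70 and HSP110 genes limma called 0 in either line, and with the block 1 was higher (Hspa4, 0.39 ± 0.35 without the block) and 1 lower (Hspa2, -0.25 ± 0.16) in reconstituted cells and 0 in AhR-null cells. Of 9 heat shock factors and other heat-inducible genes, 3 were higher and 1 was lower in each line (5 higher and 3 lower in reconstituted cells and 4 higher and 2 lower in AhR-null cells with the block), led by Hmox1, which encodes the haem-degrading enzyme (2.67 ± 0.16 in reconstituted cells and 2.22 ± 0.16 in AhR-null cells), and Sqstm1, the autophagy receptor p62 (1.58 ± 0.14 and 1.63 ± 0.14). Mt1, a metallothionein, changed by 0.41 ± 0.10 and 0.40 ± 0.10. These genes also answer to oxidative stress and metals, so they are not specific to heat shock factors. Hsbp1, an inhibitor of HSF1, was lower in reconstituted cells (-0.35 ± 0.10) and Hsf4 in AhR-null cells (-0.59 ± 0.15).

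**Figure D4:**
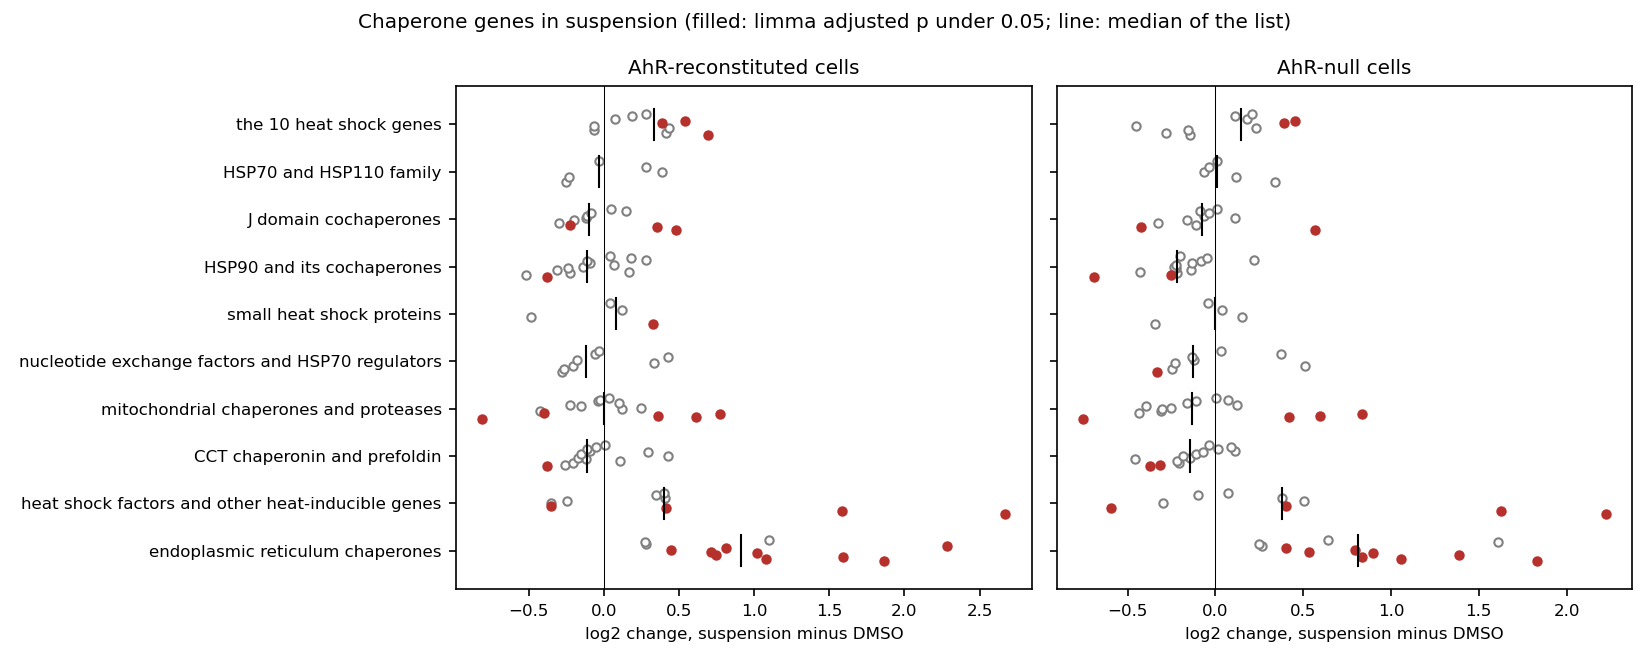
Log2 change in suspension against DMSO (x axis) of each tested gene of the 10 heat shock genes and of the 9 other lists (rows), in reconstituted cells on the left and AhR-null cells on the right; filled points passed limma at an adjusted p under 0.05 and lines are list medians. The endoplasmic reticulum list lies furthest to the right, with medians of 0.92 and 0.81, and the 10 heat shock genes have medians of 0.33 and 0.15.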

How the data were processed

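RNA was measured on 18 arrays of 6 groups. The submitters' processing notes name BeadStudio, with no version. The authors' non-normalized table gives, per probe and array, a background-subtracted bead intensity and a detection p-value. A matrix of processed intensity values with a floor of 20 was also deposited and used as an alternative, and how its arrays were scaled stays unknown.

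The intensity values deposited by the authors were corrected, offset by 16, taken to log2 and quantile normalized with limma 3.58.1 in R 4.3.3, by the steps of neqc, which infers the negative controls from the detection p-values. Of 45281 probes, 34885 named 1 gene, 18 several and 10378 none. The filter kept 22203 probes with 3 or more arrays below a detection p-value of 0.05, and each gene was read from its brightest kept probe on average (11149 genes, 4775 with more than 1 kept probe). All 18 arrays entered 1 fit of the 6 group means by lmFit and eBayes, which left 12 residual degrees of freedom, with two-sided tests and Benjamini-Hochberg adjustment over all genes within a comparison. Per-probe results were adjusted over all kept probes. Intervals are 95% intervals of the fit. The signal over background and 3 arrays per group limit the precision.

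Within a line, arrays of the same number shared their deviations in all 9 pairs, so the number was taken to pair arrays within a line, from the data and not from a label of a shared batch, although some AhR-null arrays of different numbers correlated up to 0.687. Between lines the correlations of same-numbered arrays ran from -0.696 to 0.194, and the numbers pair nothing there. The blocked fit had 8 residual degrees of freedom.

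The genes, the lists and the tests were chosen with earlier results of these data known. All members are reported, with their other kept probes where these were compared. From the other lists, up to 4 genes with the smallest p per list and line were named, with the remaining members of small counts. Hspa5 and genes named for calls of the blocked fit were chosen after their values were seen. Promoter sequences and starts are from RefSeq, GRCm38.p6.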

Additional observations from a re-analysis of the deposited data

How the results depend on the processing

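No alternative turned the direction of a called result. Among YH439 comparisons 0 of the 10 genes were called under every alternative. In suspended reconstituted cells, against 3 genes, the replicate block gave 7, the block with every kept probe 6, and the block without the 6 dimmest arrays or without reconstituted replicate 1 or 2 gave 5 each; leaving out 1 array gave 1 (without suspension replicate 2) to 2. In suspended AhR-null cells, against 2 genes, median scaling gave 0 (Dnajb1 0.233, Hsph1 0.0874), fitting only the groups compared 0 (0.141 and 0.0584), the replicate block 4, the block with every kept probe 4, and leaving out 1 array 0 to 1. With the block and every kept probe, Hsp90aa1 counted in AhR-null cells through its other probe (0.00214). Median scaling also ended the Dnajb1 call in reconstituted cells (0.234). For the difference of the suspension responses, the block without reconstituted replicate 2 gave 1 gene, against 0. For the lines under DMSO, against 0, 4 genes were called without the 6 dimmest arrays, 4 with the block as well, and 4 with the block and without AhR-null replicate 3. The causes were not tested.

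Over all genes the block gave 96 calls against 15 without it and 2 against 0 (YH439 in reconstituted and AhR-null cells), 5430 against 2692 and 5260 against 2525 (suspension), and 18 against 3 and 19 against 1 (differences of the responses); other blocked fits gave 24 to 112, 0 to 4, 4157 to 9325, 4059 to 9068, 3 to 19 and 3 to 15 in the same order. Without the block, leaving out the 6 dimmest arrays gave 32, 4302, 4147, 5 and 4 (YH439 and suspension in reconstituted cells, suspension in AhR-null cells, then the differences) and 2725 against 61 between the lines (2764 with the block, 3076 with the block and without AhR-null replicate 3, 12 to 22 in the other blocked fits that leave out a replicate number). Testing every kept probe gave 4349 and 4170 in suspension and 0 for the difference of those responses. Fitting only the groups compared gave 869 in suspended AhR-null cells, 1 and 0 for the differences and 7 between the lines, and the authors' processed values gave 39 and 1 with YH439, 5 and 9 for the differences and 130 between the lines. Leaving out 1 array gave down to 1 and from 0 to 5 (5 without AhR-null suspension replicate 3) for the differences and down to 26 between the lines. The array headers give no slide, so slide as a block was not run. The Hspa1a probe was near background, which limits the precision of its fold.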

Other observations

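Across the 18 arrays the log2 signals of the members varied together in groups, which is a description over arrays that share line, treatment and array brightness. Hsp90aa1 and Hspd1 had r = 0.968, and 0.801 after the mean of each line and replicate number was removed. Dnajb1 and Hsph1, the pair called in suspension in both lines, had r = 0.391 before and 0.889 after that step. Hspa8 and Bag3 ran opposite to each other, with r = -0.78 before and -0.746 after.

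The 5 genes whose signals were most like Hspa1b over the 18 arrays were Psmd11, Rbm14, Serf1, Lin7c and Tm9sf3 (r = 0.990 to 0.980), and those most like Hspd1 were Pabpc1, Hcfc1, Evl, S100a10 and Bcas2 (r = 0.982 to 0.977). After the mean of each line and replicate number was removed, Tm9sf3 and Psmd11 were still among the 5 nearest to Hspa1b (r = 0.925 and 0.885, with Ywhaq, Slc35b1 and Tdg-ps2). For Hspd1 the 5 nearest were then Tubgcp4, Apex1, Nr2c1, Tfcp2l1 and Zfp142 (r = 0.968 to 0.948), of which 0 were among the earlier 5.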
